A study of Arabidopsis thaliana with 60 samples.

Results

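DOG1 (AT5G45830, DELAY OF GERMINATION 1) and 3 of its relatives, DOGL1 (AT4G18660), DOGL2 (AT4G18680) and DOGL3 (AT4G18690), were followed through peak lists of 2 histone marks in Arabidopsis thaliana seedlings. They are 4 of the 27444 nuclear protein-coding genes in the gene table used, and they were chosen by name for the cover of their gene bodies and 2000 bp flanks by peaks, with both marks at DOG1 in 35S::ULT1 and ref6-3 as the point of interest. Because that choice used the values of all the lists, the cover of these 4 genes is described without a test. Chromatin of 8-day-old seedlings was profiled by ChIP-seq, in which DNA bound by an antibody to a modified histone is sequenced. The single-end libraries came from 35S::ULT1, ult1-2 and ult1-3 with their wild type Ler, and from ref6-3 with its wild type Col-0, at 2 libraries for each genotype and mark. The series design places the single-end ult1-3 in the Ler background. A paired-end set, for H3K27me3 and with 1 deposited list a genotype, held the single mutants ult1-3 (Col-0 background), swn-7 and clf-28, a double mutant of ult1-3 with each of the other two, and Col-0 as wild type. The 35S promoter is a viral promoter active in most plant tissues, so 35S::ULT1 is a misexpression line. Ler and Col-0 are different accessions, and their families are not compared with each other. Seedlings are a mixture of organs, so fewer cells carrying a mark and less mark in each cell cannot be told apart.

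DOG1 is a main regulator of seed dormancy: its protein accumulates in maturing seed and delays germination by binding the protein phosphatases AHG1 and AHG3 of the abscisic acid pathway. After germination the gene is silent in most of the plant. H3K27me3 is the mark of genes silenced by Polycomb repressive complex PRC2, whose catalytic subunits include CLF and SWN. The demethylase REF6 removes it, and ULT1 (ULTRAPETALA1) is a SAND-domain protein that acts with trithorax factors against Polycomb silencing of flower genes. Trimethylation of lysine K4 is found at the start of transcribed genes. The labels' antibody tag writes histone H4 for these libraries while the titles write K4, so the mark is called K4 here.

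The number of peaks was 6379 to 9945 in the single-end lists of H3K27me3, 15527 to 16510 in those of K4 and 3703 to 5987 in the paired-end lists. ChIP reads in peaks came to between 8.79 and 22.4 M (M, 1e6) for H3K27me3 and between 16.5 and 22.5 M for K4. Neither reads in peaks nor read depth is known for the paired-end set. All peaks lie on windows of 200 bp, so cover moves in steps of 1 window. As a check of the labelled tissue, 4 photosynthesis genes of green seedlings (RBCS1A, CAB1, PSBO1 and GAPA) carried K4 and no H3K27me3 call in every single-end list. The 4 seed genes (CRA1, SESA1, OLEO1 and EM6), which encode storage, oil body and late embryo proteins, carried H3K27me3 and no K4 call in every single-end list. In the paired-end lists the 4 seed genes were again all called for H3K27me3. The photosynthesis genes were not free of it there: 2 of 4 were called in ult1-3 and in clf-28, 1 in each double mutant and 0 in swn-7, against 1 in Col-0, where its cover was 95.6%. The part of this in the paired-end calls was not tested.

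DOG1 lies on chromosome 5 at 18589418 to 18591506 (2089 bp, TAIR10.1). It sat under an H3K27me3 peak in all 12 single-end lists. The peak covered 72.1% of the gene body in both 35S::ULT1, both ult1-2, both ult1-3 and both Ler lists. In both ref6-3 lists it also covered 72.1%, against 81.7% in both Col-0 lists, a difference of 1 window at the low-coordinate edge. The peak began at 18590001 in ref6-3 and at 18589801 in Col-0. No pair of libraries of a genotype differed in this value, and the genotypes of the Ler family did not differ at all. The 2000 bp flank on the high-coordinate side was covered by 100% in all 12 lists.

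**Figure D1:**
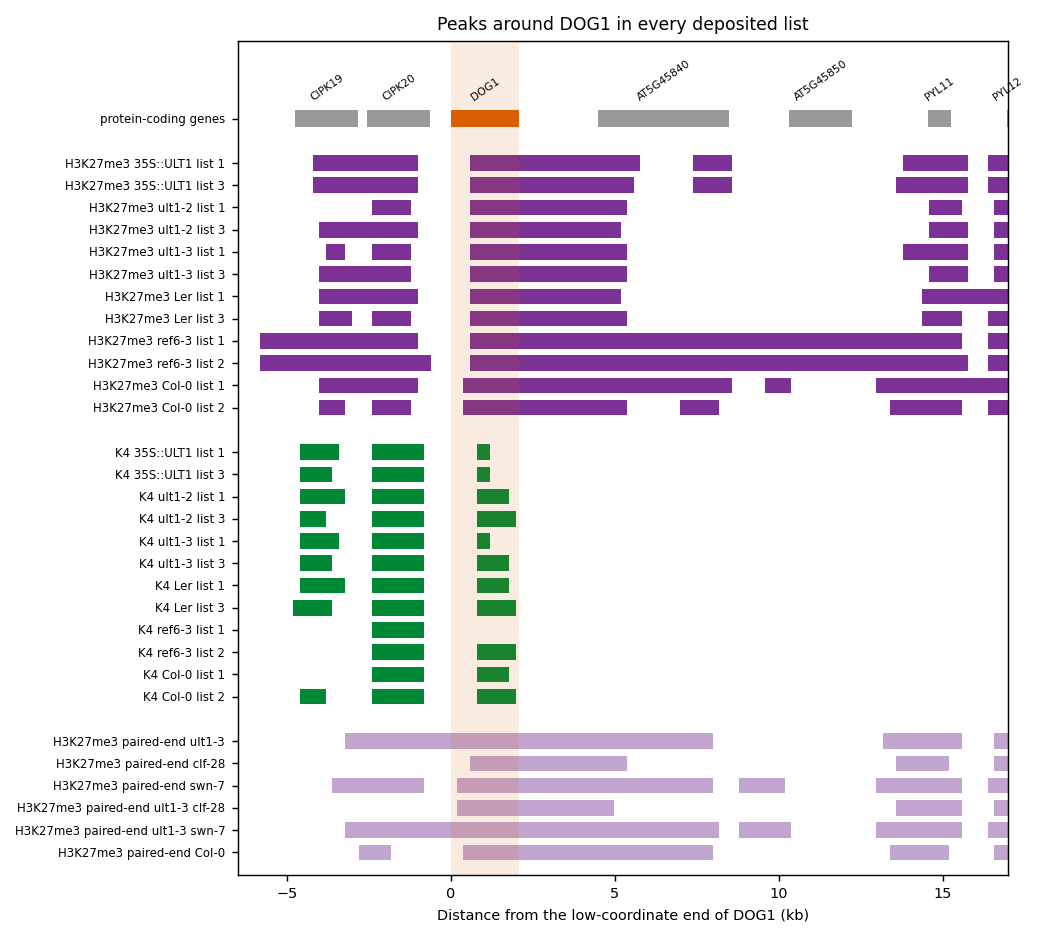
Peaks around DOG1 in each deposited list (purple, single-end H3K27me3; green, K4; light purple, paired-end H3K27me3), with distance in kb from the low-coordinate end of DOG1 on the horizontal axis and the protein-coding genes on top. The H3K27me3 peak over DOG1 is 15000 and 15200 bp wide in ref6-3, and the K4 peak is 400 bp wide in both 35S::ULT1 lists.

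At DOG1 in ref6-3 the H3K27me3 peak reached farther beyond the gene than in Col-0. In ref6-3 the peak was 15000 and 15200 bp wide, against 8200 and 5000 bp in Col-0. The ref6-3 peaks were thus both wider than either Col-0 peak, and ran from inside DOG1 over AT5G45840, AT5G45850 and PYL11, an abscisic acid receptor gene. AT5G45850 was covered by 100% in both ref6-3 lists, against 2.87% and 0% in Col-0. PYL11 lay under a separate peak in Col-0, so at that gene the difference was in the join and not in the cover. ChIP reads in peaks differed between these libraries: Col-0 list 1 had 18.0 M and list 2 had 8.79 M, and the ref6-3 lists had 11.3 and 19.6 M. These counts also depend on the peaks called, so they are not read depth. The part of depth in the width was not tested.

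In the Ler family the same peak kept a width of 4600 to 5200 bp. It was 5200 and 5000 bp wide in 35S::ULT1, 4800 and 4600 bp in ult1-2 and 4800 bp in both ult1-3 lists, against 4600 and 4800 bp in Ler. The 35S::ULT1 peaks were wider than the others by at least 1 window. The authors' fold enrichment over control at this peak was 4.45 and 5.29 in 35S::ULT1, 4.85 and 4.78 in ult1-2 and 5.22 and 4.78 in ult1-3, against 4.88 and 5.20 in Ler. These ranges overlap. It was 4.81 and 5.05 in ref6-3, against 3.05 and 5.00 in Col-0, where the lower value came from the 8200 bp peak. Within its own list the DOG1 peak ranked between the 57.5th and the 94.9th percentile by fold, with a median at the 84.3th.

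K4 at DOG1 was a short peak inside the gene, and it was shorter in 35S::ULT1 than in Ler. It covered 400 bp of the body in both 35S::ULT1 lists, against 1000 and 1200 bp in Ler, with no overlap between the groups. In ult1-2 it covered 1000 and 1200 bp, the same values as in Ler. In ult1-3 it covered 400 and 1000 bp, which overlaps Ler at the upper value. As a share of the body, the mean was 19.1% ± 0 in 35S::ULT1, 52.7% ± 6.77 in ult1-2 and 33.5% ± 20.3 in ult1-3, against 52.7% ± 6.77 in Ler (SD, n = 2 each). The difference from Ler was -33.5 percentage points in 35S::ULT1 and -19.1 in ult1-3. The peak began at 18590201 wherever it was present and varied only in its high-coordinate end, at 18590600, 18591200 or 18591400.

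In ref6-3 the K4 lists disagreed with each other: list 1 held no peak in DOG1 and list 2 held one of 1200 bp, against 1000 and 1200 bp in Col-0. The mean was 28.7% ± 40.6 in ref6-3 and 52.7% ± 6.77 in Col-0 (SD, n = 2 each), and the groups overlap. Within the Ler family, ult1-2 and Ler stood level in mean cover, followed by ult1-3 and 35S::ULT1. Neighbours in that order overlap or touch in their single lists, while both 35S::ULT1 lists lay below both Ler lists.

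The K4 peak of DOG1 was weak within its lists. The peak was present in 11 of 12 lists, and where the fold column could be used the authors' fold over control ranged from 1.50 to 3.27 and its rank within a list from the 7.35th to the 22.0th percentile. Peaks of up to 400 bp made up 1.26% to 3.43% of the peaks of a K4 list. Both ends of the fold range came from 35S::ULT1, 1.50 in list 1 and 3.27 in list 3, which also had the highest rank. ChIP reads per kb of the peak, not corrected for depth, were 652.5 and 702.5 in 35S::ULT1, against 509 and 388 in Ler. The 35S::ULT1 peak was thus shorter without being lower in both lists by these measures. In 35S::ULT1 list 1 the deposited q-value of the peak was 3.24e-10, the weakest of all. With peaks restricted to a q-value of at most 1e-10 the difference between 35S::ULT1 and Ler became -43.1 points. Over the body with its flanks it was -11.5 points, the same bases as a share of a longer stretch, since K4 cover of either flank did not differ. Among the Ler-family K4 lists, those numbered 1 had a median fold of 2.44 to 3.07 and the 2 usable ones numbered 3 had 4.30 and 4.33. The K4 peak was 400 bp in both 35S::ULT1 lists, against 1000 bp in Ler list 1 and 1200 bp in Ler list 3. Any pairing of these lists gives the same direction, so a comparison within a number adds nothing.

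**Figure D2:**
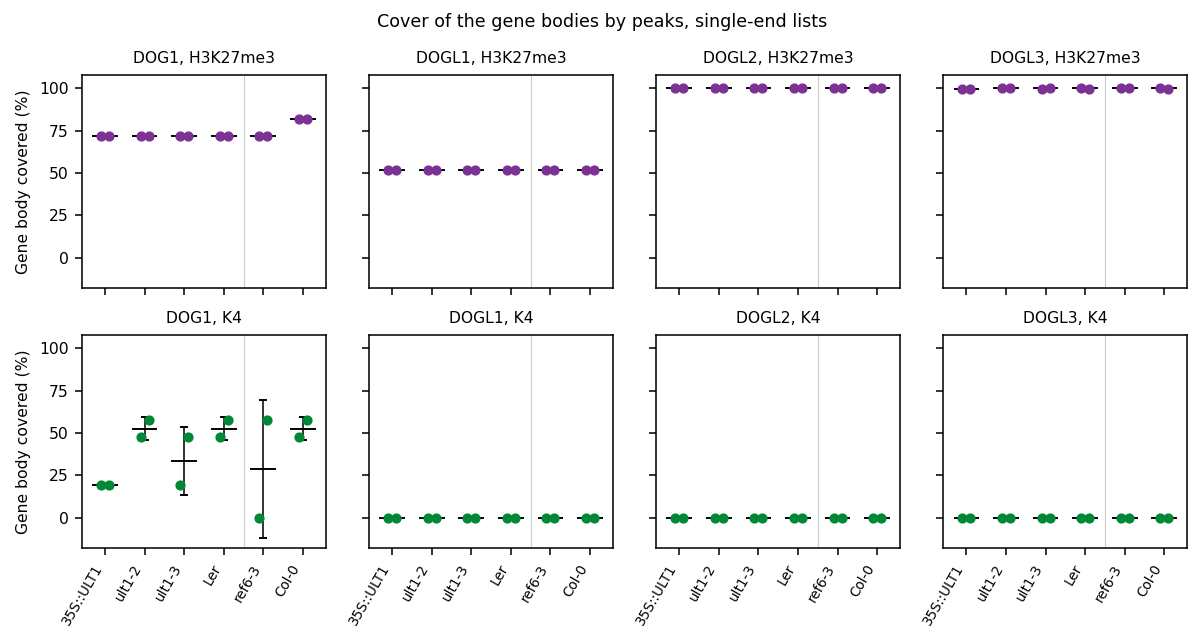
Percent of the gene body under peaks for DOG1, DOGL1, DOGL2 and DOGL3 in the single-end lists, with 1 point a list, a bar at the mean and error bars of 1 SD (n = 2). K4 at DOG1 is 19.1% in both 35S::ULT1 lists, and K4 is 0% at the 3 relatives in all lists.

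To set these values against the genome, a gene was called marked by H3K27me3 at 50% of its body or more, and by K4 at 500 bp or at 50% of its body, whichever was less. It was called lost when marked in both wild-type lists and in neither mutant list, and gained in the reverse case. In the K4 comparison of 35S::ULT1 with Ler, 1 of the 4 genes was called, DOG1 as lost, where 0.335% of all genes were called. Its values on either side of the 500 bp threshold were 400 bp in 35S::ULT1 and 1000 bp in Ler. K4 gave 0 of 4 in ult1-2 (background 0.266%), 0 of 4 in ult1-3 (0.492%) and 0 of 4 in ref6-3 (0.649%). H3K27me3 gave 0 of 4 in 35S::ULT1 (4.5%), in ult1-2 (0.98%), in ult1-3 (0.798%) and in ref6-3 (5.8%). Since these contrasts chose the genes, nothing is read from the shares.

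Both marks lay on the same bases of DOG1. In each pair of lists of a genotype, every K4 base in DOG1 was inside the H3K27me3 peak. Bases under both marks in all 4 lists of a genotype numbered 400 in 35S::ULT1, 1000 in ult1-2 and 400 in ult1-3, against 1000 in Ler. They numbered 0 in ref6-3, where 1 K4 list had no peak, against 1000 in Col-0. Over all genes, 11.6% had any such base in 35S::ULT1, 5.20% in ult1-2 and 5.07% in ult1-3, against 6.32% in Ler, and 8.48% had one in ref6-3, against 5.04% in Col-0. Peak lists of whole seedlings do not show whether the marks sit on the same chromatin fibre or in different cells.

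The low-coordinate flank of DOG1 holds CIPK20, a gene for a calcium-sensor interacting kinase that ends 625 bp before DOG1. K4 covered 59.2% of that flank in all 12 lists, through a peak over CIPK20, and 0% of the high-coordinate flank. CIPK20 itself carried K4 on 83.2% of its body in every list. H3K27me3 covered 79.6% and 79.6% of CIPK20 in 35S::ULT1, against 79.6% and 62.4% in Ler. It covered 79.6% and 100% of CIPK20 in ref6-3, against 79.6% and 62.4% in Col-0. The pairing of marks seen at DOG1 was thus also present at its neighbour.

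DOGL1 lies on chromosome 4 at 10273480 to 10274872, DOGL2 at 10281033 to 10281740 and DOGL3 at 10282762 to 10283803. The names are those given for these loci, and the gene table lists them by locus only. All 3 carried H3K27me3 in all 12 single-end lists and K4 in none. H3K27me3 covered 51.8% of DOGL1 and 100% of DOGL2 in every list, and 99.7% to 100% of DOGL3. DOGL2 and DOGL3, 1021 bp apart, lay under 1 shared peak of 5000 to 7600 bp in every single-end list, so they are not independent of each other. The authors' fold over control was 3.54 to 5.16 at DOGL1 and 4.11 to 6.06 at the shared peak.

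**Figure D3:**
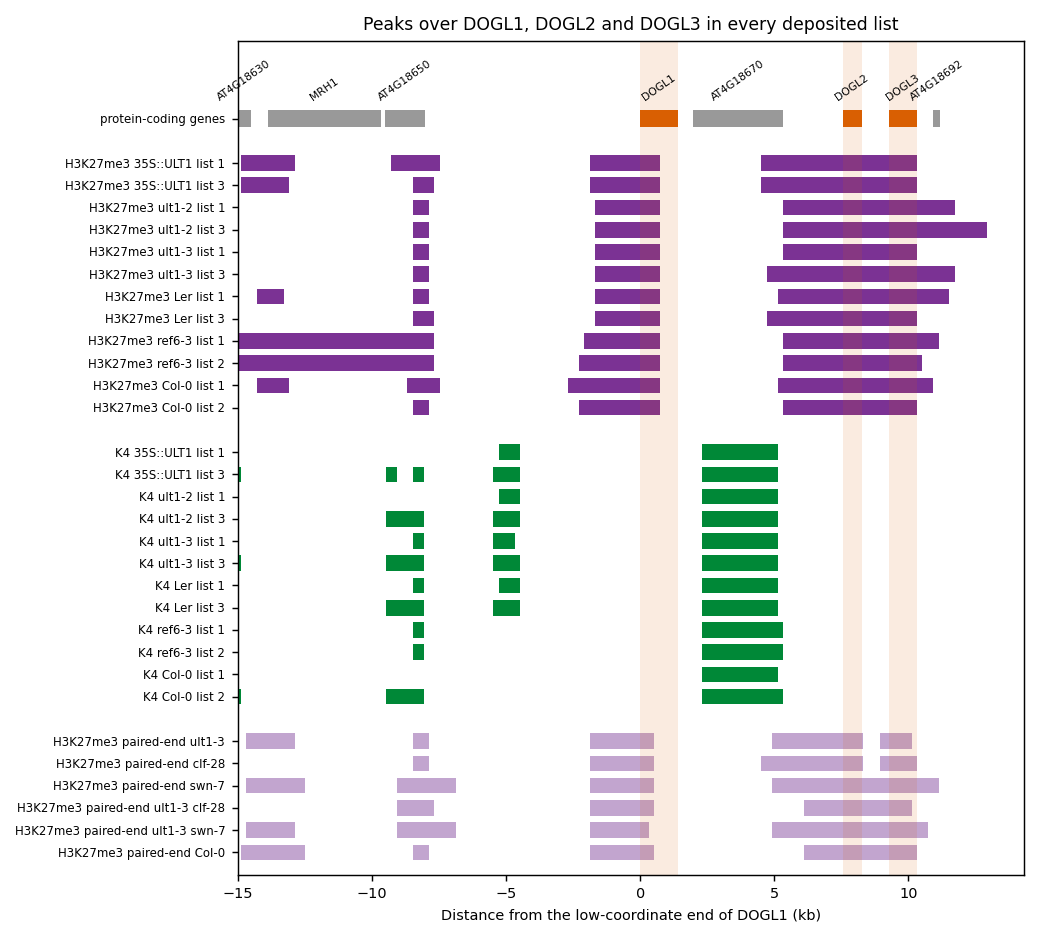
Peaks over the DOGL1, DOGL2 and DOGL3 cluster in each deposited list, coloured as at DOG1, with distance in kb from the low-coordinate end of DOGL1 on the horizontal axis. H3K27me3 covers 51.8% of DOGL1 and 100% of DOGL2 in all single-end lists, and the K4 peak lies over AT4G18670 between them.

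The edges of these domains varied more than the gene bodies. The low-coordinate flank of DOGL1 was covered by 94.0% in both 35S::ULT1 lists and by 84.0% in both lists of ult1-2 and of ult1-3, against 84.0% in both Ler lists, a difference of 1 window. It was covered by 100% in ref6-3 and in Col-0. The high-coordinate flank of DOGL3 was covered by 0% ± 0 in 35S::ULT1, 84.9% ± 21.3 in ult1-2 and 34.9% ± 49.4 in ult1-3, against 29.9% ± 42.3 in Ler (SD, n = 2 each). The spread in ult1-3 and in Ler spans most of that range. In ref6-3 it was 24.9% ± 21.2, against 14.9% ± 21.1 in Col-0 (SD, n = 2 each), which overlap. AT4G18670, which starts 589 bp beyond DOGL1, carried K4 on 84.0% to 89.8% of its body in all lists.

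The paired-end lists gave H3K27me3 at DOG1 in PRC2 mutants, without a replicate. DOG1 was covered by 100% in ult1-3 and ult1-3 swn-7, by 91.2% in swn-7 and ult1-3 clf-28 and by 72.1% in clf-28, against 81.7% in Col-0. H3K27me3 was thus present over most of DOG1 in every list, the single mutants of both methyltransferases included. Peak width was 11200 bp in ult1-3, 11400 bp in ult1-3 swn-7, 7800 bp in swn-7 and 4800 bp in both clf-28 and ult1-3 clf-28, against 7600 bp in Col-0. The ult1-3 and ult1-3 swn-7 peaks began at 18586201 and took in CIPK20, which was covered by 100% in both. It was covered by 90.02% in swn-7 and by 0% in clf-28 and its double mutant, against 38.0% in Col-0. The low-coordinate flank of DOG1 was covered by 100% in ult1-3 and ult1-3 swn-7, by 59.2% in swn-7 and by 0% in clf-28 and its double mutant, against 9.15% in Col-0.

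DOGL2 was covered by 100% in all 6 paired-end lists. DOGL1 was covered by 37.4% in 5 of them and by 23.0% in ult1-3 swn-7. DOGL3 was covered by 80.5% in ult1-3 and ult1-3 clf-28, by 100% in swn-7 and ult1-3 swn-7 and by 99.7% in clf-28, against 99.7% in Col-0. DOGL2 and DOGL3 were under separate peaks in ult1-3 and clf-28 and under 1 shared peak in the other lists. A gene was called between paired-end lists when its marked state differed by at least 50 points, and 0 of the 4 genes were called in any of the 7 comparisons. The background against Col-0 was 4.16% of genes in ult1-3, 3.06% in swn-7 and 8.82% in clf-28, and in the double mutants 3.44% with swn-7 and 10.8% with clf-28. It was 8.35% in ult1-3 clf-28 against clf-28 and 2.14% in ult1-3 swn-7 against swn-7.

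The other genes of the dormancy pathway were a list of 49, covering relatives of DOG1, abscisic acid signalling and metabolism, seed transcription factors, gibberellin genes and chromatin factors acting on DOG1. Their cover was tested with limma over all genes covered in at least 1 library of the family, with Benjamini-Hochberg adjustment over all of them. Nothing in the labels says that libraries of a genotype came from separate plants, so these p-values measure the spread between libraries, which may be technical. In 35S::ULT1 against Ler, 28 of the 49 were tested for H3K27me3 and 6 were higher and 0 lower. Over all genes tested, 13.5% were called, 1483 higher and 55 lower, so the direction was that of the whole table. The median difference was 6.42 points over the list and 0 over all genes tested. The list was chosen with earlier results of these data known.

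The 6 genes were of several roles. WRKY41, a regulator of the seed factor ABI3, was covered by 53.2% in both 35S::ULT1 lists, against 0% in both Ler lists (difference 53.2 ± 8.14 points, SE; limma adjusted p = 0.00781). RGL2, a DELLA repressor of germination, stood at 43.2% in both against 0% in both Ler lists (adjusted p = 0.00792, limma). SPT, a bHLH factor in germination control, stood at 39.8% in both against 0% in both Ler lists (adjusted p = 0.00986, limma). GA3OX2, which makes active gibberellin, was at 92.8% in both, against 50.4% and 39.8% in Ler (adjusted p = 0.0161, limma). NCED9, which makes an abscisic acid precursor, was at 100% in both, against 63.2% and 40.3% in Ler (adjusted p = 0.0174, limma). AHG1, the phosphatase that DOG1 binds, was at 92.1% in both, against 50.2% in both Ler lists (adjusted p = 0.0186, limma).

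The number of these calls rested on the lists used. With the same number of peaks in each list 3 of the 6 were called, and WRKY41, RGL2 and SPT had no peak left in any library of the family. Without 35S::ULT1 library 3 the count was 3, and without Ler library 3 it was 2. The count was 11 without the floor on the residual SD and 17 with flanks. GA3OX2 and AHG1 lost their calls with any 1 of the 4 libraries left out. In ult1-2 and ult1-3 against Ler, 28 genes of the list were tested in each, 0 passed limma and 1 in each had an unadjusted p under 0.05, where 0.0615% and 0.176% of all genes were called.

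**Figure D4:**
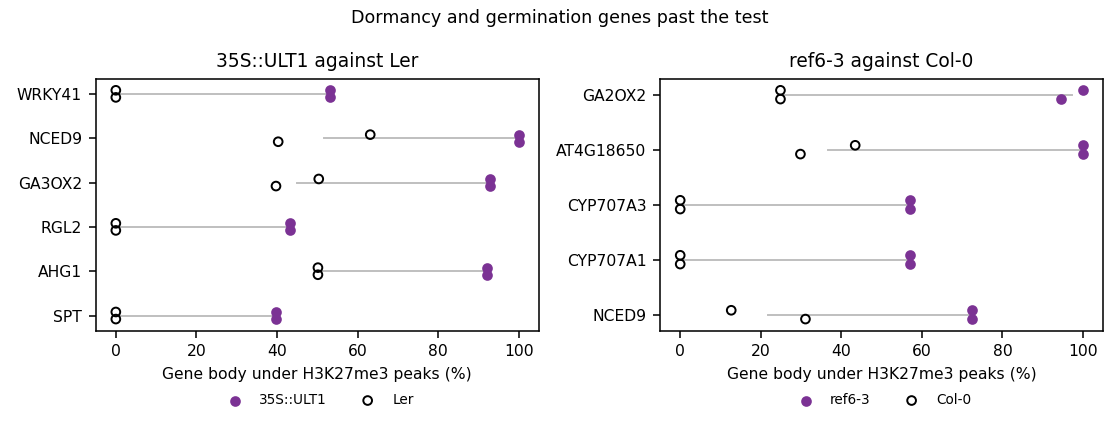
Percent of the gene body under H3K27me3 peaks for the dormancy and germination genes that passed limma (adjusted p under 0.05), in 35S::ULT1 against Ler and in ref6-3 against Col-0, with 1 point a list. For each gene shown, both lists of the mutant or misexpression line lie above both lists of its wild type.

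In ref6-3 against Col-0, 26 of the 49 were tested for H3K27me3 and 5 were higher and 0 lower. Over all genes tested, 16.8% were called, 1546 higher and 175 lower. The list median was 0, as over all genes. GA2OX2, which inactivates gibberellin, was covered by 100% and 94.4% in ref6-3, against 24.9% in both Col-0 lists (difference 72.3 ± 13.0 points, SE; limma adjusted p = 0.00189). CYP707A1 and CYP707A3, which break down abscisic acid, stood at 57.0% and 57.1% in both ref6-3 lists, against 0% in both Col-0 lists (limma adjusted p = 0.00459 and 0.00467). AT4G18650, which lies 8040 bp below DOGL1 and is a DOG1 relative of the list, was at 100% in both ref6-3 lists, against 43.4% and 29.8% in Col-0 (adjusted p = 0.00559, limma). NCED9 was at 72.4% in both ref6-3 lists, against 12.7% and 31.1% in Col-0 (adjusted p = 0.0176, limma), and this call was lost in 7 of 10 alternatives. The AT4G18650 call was lost without ref6-3 library 1 and without library 2, with an adjusted p by limma of 9.2e-20 to 0.11 over its alternatives. The calls of CYP707A1 and CYP707A3 were lost without Col-0 library 2, at limma adjusted p of up to 0.0504 and 0.0503. The count was 9 with flanks, and 3 without ref6-3 library 1, without ref6-3 library 2 and without Col-0 library 2.

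For K4, 37 of the 49 genes were tested in each comparison. In 35S::ULT1, ult1-2 and ult1-3 against Ler 0 passed limma and 0 had an unadjusted p under 0.05, where 0.0159%, 0% and 0.0212% of all genes were called. At 0% in ult1-2, 97 genes of the whole table had an unadjusted p under 0.05. In ref6-3 against Col-0, SOM, a zinc finger repressor of germination, was the 1 gene higher, at 32.3% and 43.1% in ref6-3, against 0% in both Col-0 lists (difference 37.7 ± 4.43 points, SE; limma adjusted p = 5.67e-15), where 1.14% of all genes were called. Without the floor on the residual SD this call was lost, at a limma adjusted p of 0.232, and over all 10 alternatives the adjusted p ran from 1.43e-15 to 0.232. Without ref6-3 library 1, without Col-0 library 1 or without Col-0 library 2 the count was 2.

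In the paired-end lists, 7 of the 49 genes were called in clf-28 against Col-0, 4 gained and 3 lost, where 8.82% of all genes were called. Against Col-0, 2 were lost and 0 gained in ult1-3, where 4.16% of all genes were called. In ult1-3 clf-28, 4 were lost and 0 gained, where 2743 of all genes were lost and 216 gained (10.8% called). In swn-7 and in ult1-3 swn-7, 1 was gained and 0 lost, where 3.06% and 3.44% of all genes were called. Set against clf-28, ult1-3 clf-28 had 5 lost and 0 gained, where 2117 of all genes were lost and 174 gained (8.35% called). Set against swn-7, ult1-3 swn-7 had 0 of either, where 2.14% of all genes were called. AT3G14880, a DOG1 relative of the list, was covered by 0% in ult1-3 and ult1-3 clf-28, against 66.1% in Col-0. Its cover was 71.1% in clf-28, 52.9% in swn-7 and 39.7% in ult1-3 swn-7. The single-end ult1-3 lists, of the Ler background, did not share the 0%: AT3G14880 was covered by 97.6% in both, against 100% in both Ler lists. AHG3, the other phosphatase bound by DOG1, was covered by 67.7% in paired-end clf-28 and by 0% in ult1-3 clf-28 and in Col-0. GA3OX1 and GID1A, a gibberellin enzyme and a gibberellin receptor, were covered by 71.6% and 64.5% in clf-28, against 0% in Col-0 for both. AHG3 carried K4 on 77.3% to 89.4% of its body in the single-end lists. The clf-28 list also called 2 of the 4 photosynthesis genes, against 1 in Col-0, and what this means for the gains was not tested. AHG1 was covered by 33.4% in paired-end clf-28, against 100% in paired-end Col-0. In the single-end Col-0 lists AHG1 was covered by 8.22% and 50.2%, a range that holds the clf-28 value. In paired-end clf-28, LEC2, a master regulator of embryo development, was covered by 29.1%, against 100% in Col-0. LEC1, its partner in embryo control, was covered by 100% in swn-7 and in ult1-3 swn-7, against 38.6% in Col-0. The paired-end lists have no replicate.

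By the root mean square difference in cover over the 24 single-end lists, the genes most like DOG1 were AT3G01490 at 14.9 points, RALFL17 at 15.6, AT1G22110 at 15.6, AT1G63360 at 15.7 and AT2G46300 at 15.9. The median over the other genes was 54.2 points and the 1st percentile 23.5. Like DOG1, these 5 had H3K27me3 over much of the body in every list together with a shorter K4 peak in most lists. None of the 5 had a lower mean K4 cover in 35S::ULT1 than in Ler, unlike DOG1. The mean was 48.4% in 35S::ULT1 against 45.0% in Ler at AT3G01490. It was the same in both at RALFL17 (36.8%), AT1G22110 (28.1%), AT1G63360 (37.0%) and AT2G46300 (55.9%). A lower mean was not particular to DOG1, since its relative AT4G18650, outside these 5, had one too. K4 covered 0% and 54.4% of AT4G18650 in 35S::ULT1 (mean 27.2%), against 27.2% and 95.2% in Ler (mean 61.2%). The single lists of the 2 groups overlap there. The likeness is a description over lists that share genotypes.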

How the data were processed

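ChIP-seq peak lists of Arabidopsis seedlings were used as the authors deposited them, 24 from single libraries (single-end) and 6 from single genotypes (paired-end). TAIR10 is the build named in the submitters' processing notes, which also name BWA 0.6.2-r126 and 0.7.17-r1188, SAMtools 0.1.19 and 1.16.1, Picard 1.93 and 2.26.10, bedtools 2.17.0-97 and 2.30.0, CASAVA 1.8.2 and SICER 1.1. Reads of Ler plants were thus placed on the Col-0 build. Per the labels' protocols, ChIP reactions on 1 nuclear extract were pooled. The deposited columns used were the ChIP read count, the fold ratio over control and the q-value of each peak (largest 9.99e-05). The paired-end lists deposited by the authors hold a whole-number score of unstated unit. The control counts and raw p-values, and the fold of 2 K4 lists, 50 columns in all, were not used. The numbers of the Ler and ult1-2 K4 lists differ from the labels, so these were assigned to a genotype only and their fold left out, and library numbers are those of the list names.

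Cover was the percent of a gene body, or of 2000 bp flanks, under peaks. Genes came from RefSeq (TAIR10.1), which gave positions without strand. limma 3.58.1 (R 4.3.3, trend and robust, residual SD floored at 1 window of 200 bp, threshold 0.05) was fitted over all genes covered in at least 1 library of the family, and was tested on simulated data. Alternatives were no floor, no filter, a q-value of at most 1e-10, equal numbers of peaks, flanks, the replicate block and leaving out each library. Named genes were the 4 genes, their neighbours, pathway genes past limma and the 5 genes most like DOG1. The members and lists were chosen with earlier results of these data known. AT5G45840, AT5G45850 and PYL11 were named after their values were seen, as were the paired-end pathway genes.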

Additional observations from a re-analysis of the deposited data

How the results depend on the processing

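Of 32 single-end differences in cover of the 4 genes, 32 stayed within the replicate SD with equal numbers of peaks and 31 with the stricter q-value. All 128 with a library left out did too, as they must with 2 lists a group. K4 cover of DOGL1, DOGL2 and DOGL3 was 0% in every list, so their K4 differences could not move under these settings. The counts are therefore not a measure of robustness. With flanks, 9 of 32 single-end and 5 of 28 paired-end differences moved. At DOG1, flanks gave 1.64 points for H3K27me3 in 35S::ULT1 minus Ler (0 in the body) and 1.64 in ref6-3 minus Col-0 (-9.57 in the body). K4 in 35S::ULT1 minus Ler was -43.1 with the stricter q-value, and -38.3 to -28.7 with a library left out. It was -11.5 with flanks, where the same bases are a share of a longer stretch and the flanks themselves did not differ.

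Of the pathway list, H3K27me3 calls in 35S::ULT1 were 11 without the floor, 3 with equal peaks, 17 with flanks and 2 to 4 with a library left out. In ult1-2 and in ult1-3 they were 1 without the floor and 1 with flanks. In ref6-3 they were 9 with flanks and 3 to 4 with a library left out. K4 calls in ref6-3 were 3 without the floor and 1 to 2 with a library left out. The cause was not tested. With a library left out the lone sample is assumed to vary like the other groups.

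With the list number as a replicate block, K4 calls in 35S::ULT1 against Ler became 1 (AT4G18650, lower in 35S::ULT1). With that block, H3K27me3 calls in 35S::ULT1 stayed at 6 and in ref6-3 became 4. Differences between numbers correlated between genotypes at 0.361 to 0.53 for K4 and at -0.0292 to 0.44 for H3K27me3. With 2 numbers and no batch stated in the labels, the samples share a number only. What depth limits was not tested.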

Other observations

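Around DOG1, AT5G45840 was covered by H3K27me3 at 59.9% and 54.9% in 35S::ULT1, 22.1% and 17.1% in ult1-2 and 22.1% in both ult1-3 lists, against 17.1% and 22.1% in Ler. It stood at 100% in both ref6-3 lists, against 100% and 52.2% in Col-0. In 35S::ULT1 the cover came from the end of the peak over DOG1 and from a separate peak beyond it. Near the DOGL cluster, MRH1, a receptor-like kinase gene beside AT4G18650, was covered by 100% in both ref6-3 lists, against 18.97% and 0% in Col-0. These genes were chosen after their values were seen.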
